A study of Mus musculus with 16 samples.

Results

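The 38 genes described here act in G2 and in mitosis, and they were taken by name as a listed set, which was drawn up with earlier results of these data known. All 38 of them are among the 24421 genes listed for both genotypes, and all 38 had at least 1 unique molecular identifier (UMI, the tag that marks 1 captured mRNA molecule) in each genotype. Single cells came from the crypt-enriched small intestine of outbred mice at postnatal day 16, and were profiled with a droplet kit that reads the 3′ ends of mRNAs. The WT group were littermate controls, and the other group were ROBO(+/-):VilCre(+/-) mice, written ROBO below, in which Cre under the Villin promoter recombines the Crainbow transgene across the intestinal epithelium from embryonic life on. Each recombined cell then carries 1 of 3 human transcripts with a fluorescent protein, RSPO3 or a fusion of PTPRK exon 1 or exons 1–7 with RSPO3 exons 2–5. Both genotypes were sampled at the same age and in the same way, and each was run on 2 cartridges of its own, so genotype and cartridge cannot be told apart. Each genotype has 8 deposited samples, but the cell names give only the genotype, so each genotype is 1 pooled sample with no replicates. Every interval below is a 95% interval for counting error alone, and no test between genotypes was possible. The human transcripts are not listed separately, so these matrices do not check which cells had recombined.

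A cell in G2 holds duplicated chromosomes and raises cyclin B with its kinase Cdk1, which together drive entry into mitosis. Kinetochore proteins then tie the chromosomes to the spindle, the checkpoint holds the cell until every chromosome is attached, and the anaphase-promoting complex with Cdc20 and Ube2c ends mitosis by marking cyclin B and securin for degradation. Transcription of many of these genes peaks in G2 and M and is shut off in cells that have left the cycle. In the crypt, stem cells and the transiently amplifying cells above them divide, whereas enterocytes on the villus do not.

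WT contributed 1348 cells with a median of 1492 UMIs and ROBO 1249 cells with a median of 1610, and no expression profile occurred in more than 1 cell. The 38 genes together took 8259 of 2682127 UMIs in WT and 7005 of 2428435 in ROBO, from 60 for Ndc80 to 1137 for Tmpo over both genotypes. Cells were clustered and the clusters named from marker lists, none of which contains any of the 38 genes. A further check on the leading genes of a cluster counted the 38 and other cell division genes as fitting the amplifying name. The naming gave 683 stem-like, 467 amplifying-like, 334 bottom enterocyte-like, 547 middle enterocyte-like and 226 top enterocyte-like cells, beside smaller classes. The bottom enterocyte-like cluster was led by Gsdmc4, Dmbt1 and Reg1, and the top enterocyte-like cluster by Gpx3 and Mfi2. Of 12 bottom enterocyte markers, 6 were raised in the bottom enterocyte-like cluster. Mature enterocyte genes, a list of 25, were at 112 UMIs per 10000 there and at 85.3 in amplifying-like and 42.3 in stem-like cells. They were at 877 in middle and 2577 in top enterocyte-like cells. Part of this list, such as Lct, Sis and Apoa4, also served as markers that named those classes, so high levels there are partly set by the naming. How far bottom enterocyte-like cells had differentiated was not tested. The stem-like class joined a cluster led by Lgr5 with a shallower one led by Zfp692. The amplifying-like class joined a cluster of 278 cells led by Sfrp5, Aurkb and Pbk, with 69.7 UMIs of the 38 genes per 10000, and one of 189 cells led by the ribosomal RNA precursor Rn45s, with 49.4. Since 28 of the 38 genes were among the variable genes used for clustering, levels by class are given as a description with no test.

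Promoters of genes transcribed late in the cell cycle are known for a pair of short elements, the CHR (cell cycle genes homology region, letters TTTGAA) and the CCAAT box (letters CCAAT). RefSeq promoter windows on GRCm38.p6, of 250 bases before to 50 after a start, were found for 32 of the 38 genes; Aurkb, Dlgap5, Pbk, Smc4, Spc24 and Tpx2 are named only. On either strand, the CHR letters were in at least 1 window of 23 of the 32 genes, against 20.2% of all 27025 genes with a window, and the CCAAT letters in 24 of the 32 against 41.1%. Both occurred together in a window of 18 of the 32 genes, against 7.97% of all genes. The 5 stretches below lie upstream of the annotated gene, with bases inside the gene left off, and belong to genes on which the results turn, the kinase Cdk1, the anaphase activator Cdc20, the topoisomerase Top2a, the chromatin protein Hmgb2 and the Cdk partner Cks2. They run 5′ to 3′ on the strand of the gene, and capitals mark TTTGAA and CCAAT or their reverse complements TTCAAA and ATTGG.
Cdk1, minus strand, chr10:69352939-69353042: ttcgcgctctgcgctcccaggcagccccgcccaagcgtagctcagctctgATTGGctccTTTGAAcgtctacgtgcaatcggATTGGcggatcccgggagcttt
Cdc20, minus strand, chr4:118437353-118437473: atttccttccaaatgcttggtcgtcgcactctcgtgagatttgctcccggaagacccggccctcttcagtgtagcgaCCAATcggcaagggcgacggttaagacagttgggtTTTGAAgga
Top2a, minus strand, chr11:99024190-99024319: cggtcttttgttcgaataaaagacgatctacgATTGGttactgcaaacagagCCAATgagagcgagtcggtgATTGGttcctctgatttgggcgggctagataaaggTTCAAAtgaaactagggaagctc
Hmgb2, plus strand, chr8:57511713-57511842: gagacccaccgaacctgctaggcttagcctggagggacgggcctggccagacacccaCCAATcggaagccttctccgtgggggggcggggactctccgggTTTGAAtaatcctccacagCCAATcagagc
Cks2, plus strand, chr13:51645102-51645231: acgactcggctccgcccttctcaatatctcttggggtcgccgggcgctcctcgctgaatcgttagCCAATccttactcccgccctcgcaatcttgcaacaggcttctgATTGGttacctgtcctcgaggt
Cdk1, Top2a and Hmgb2 each show several CCAAT boxes with CHR letters near them, Cdc20 shows 1 of each in the printed stretch, and Cks2 shows CCAAT boxes alone. A match of letters is a description of the sequence and not a measurement of binding.

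The question of which mitotic transcripts reach differentiating cells was first put to the summed level, in UMIs of the 38 genes per 10000 UMIs of a class. Among stem-like, amplifying-like and enterocyte-like cells, amplifying-like cells held the highest level, 65.9 (95% interval 64.3 to 67.5). Bottom enterocyte-like cells followed with 32.5 (31.4 to 33.7) and stem-like cells with 22.3 (21.4 to 23.3). Middle enterocyte-like cells held 11.8 and top enterocyte-like cells 4.99 (4.24 to 5.83). No neighbours among these 5 classes had overlapping intervals. Outside them, immune-like cells held 44.7 and secretory-like cells 25.3. A list of 66 other mitosis genes followed the same order, with 58.4 in amplifying-like, 30.6 in bottom enterocyte-like, 26.3 in stem-like and 11.6 in top enterocyte-like cells. That list shares Ccna2, Plk1, Prc1 and Racgap1 with the amplifying markers, and its genes also counted as fitting the amplifying name. Its highest level in amplifying-like cells is thus partly set by the naming and is no separate support.

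How many dividing cells fall into the bottom enterocyte-like class depends on the clustering. Following the study's methods, cell-cycle scores were regressed out before clustering, and those scores are made in part from these same genes. Without that regression, 700 cells became amplifying-like and 230 bottom enterocyte-like, and the summed level was 65.4 in amplifying-like, 17.2 (95% interval 16.1 to 18.3) in bottom enterocyte-like, 12.5 in stem-like, 5.05 in middle and 4.95 in top enterocyte-like cells. The levels in bottom enterocyte-like and stem-like cells thus both fell. The bottom enterocyte-like interval stayed above the stem-like one (11.8 to 13.3) and above the middle and top enterocyte-like levels. Another assignment, chosen after seeing the data, left out cells of the secretory-like, enteroendocrine-like, immune-like and fibroblast-like clusters but did not otherwise use the clustering. The remaining 2389 cells are called epithelial below. Each took the lineage whose marker list (stem, bottom, middle or top enterocyte) scored highest, with no amplifying list, and 388 cells lay within 0.1 of the next score. The summed level was then 41.8 in the 860 cells with the stem lineage and 38.6 in the 654 with the bottom enterocyte lineage, against 7.37 and 10.4 in those with the middle and top enterocyte lineages. Several other settings also lowered the bottom enterocyte-like level. The log2 ratio of the summed level in bottom enterocyte-like to amplifying-like cells was -1.02 with the regression and -1.93 without it. With the regression it was -1.69 with 30 principal components, -1.65 with cells of at least 500 genes and -2.10 when 6 called doublets were left out before clustering, whereas a clustering resolution of 1.2 gave -1.03. Bottom enterocyte-like values are therefore given below with and without the regression.

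**Figure D1:**
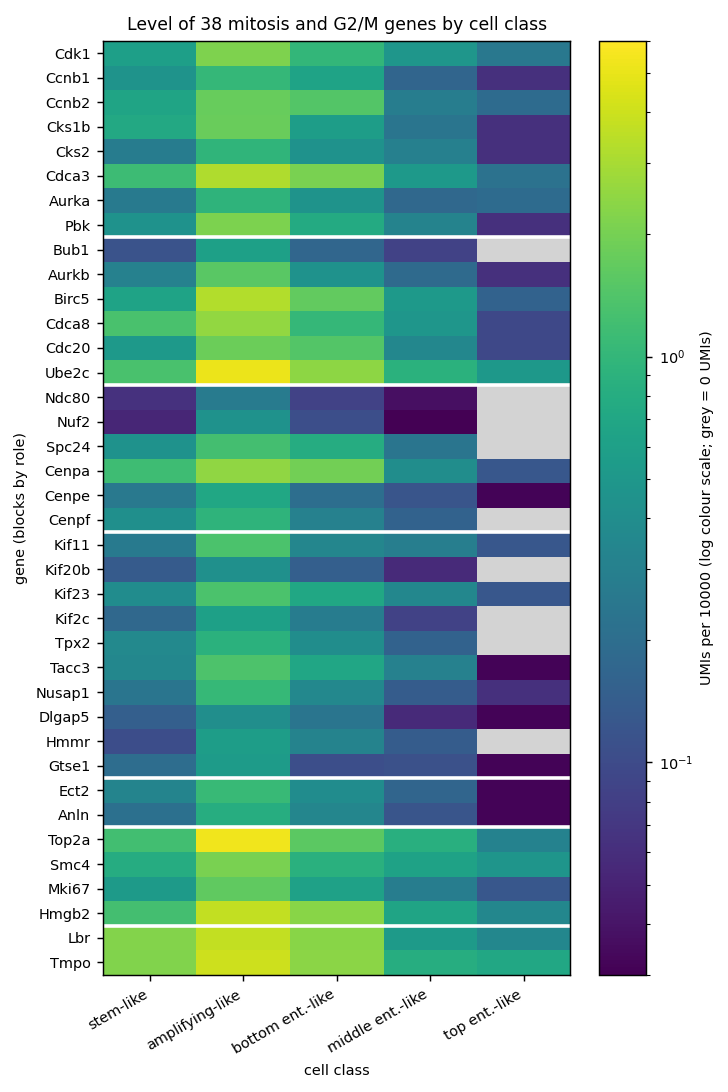
Level of each of the 38 genes (rows, in blocks by role) in 5 cell classes (columns), in UMIs per 10000 UMIs of the class on a log colour scale; grey marks a sum of 0 UMIs. Every gene is highest in amplifying-like cells, and 9 genes have no UMI in top enterocyte-like cells.

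Among cyclins, kinases and their partners, the 8 genes summed to 13.9 UMIs per 10000 in amplifying-like, 7.45 in bottom enterocyte-like and 4.55 in stem-like cells. Cdk1 (chr10:69335146-69352938, minus strand, GENCODE M21 on GRCm38), the kinase that drives mitotic entry, was at 2.15 (95% interval 1.88 to 2.46) in amplifying-like, 1.01 in bottom enterocyte-like and 0.593 in stem-like cells. Ccnb1 (chr13:100778650-100786570, minus strand) and Ccnb2 encode its cyclins, and they differed in how far they extended. Ccnb1 was at 1.03 in amplifying-like and 0.653 in bottom enterocyte-like cells. Ccnb2 was at 1.76 (95% interval 1.51 to 2.03) and 1.47 (95% interval 1.23 to 1.73) in the same classes, intervals that overlap. The Cdk-binding subunits Cks1b (chr3:89415472-89418383, minus strand) and Cks2 (chr13:51645232-51650660, plus strand) are paralogues, and how reads that match both were counted is not given in the sources used here. Cks1b was at 1.79 in amplifying-like and 0.567 in bottom enterocyte-like cells, and Cks2 at 0.962 and 0.450. Cdca3, which promotes mitotic entry, was the most abundant of this group at 3.21 in amplifying-like cells, and the kinases Pbk and Aurka were at 2.10 and 0.942.

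The 6 genes of the spindle checkpoint, the chromosomal passenger complex and anaphase summed to 14.9 in amplifying-like and 7.21 in bottom enterocyte-like cells. Ube2c, the ubiquitin-conjugating enzyme of the anaphase-promoting complex, led at 5.15 (95% interval 4.73 to 5.61) in amplifying-like and 2.43 in bottom enterocyte-like cells. Cdc20 (chr4:118432901-118437352, minus strand), which activates that complex, was at 1.84 (95% interval 1.58 to 2.12) and 1.45 (95% interval 1.21 to 1.71), intervals that overlap, while its stem-like level was 0.519. The passenger proteins Birc5 and Cdca8 were at 3.27 and 2.54 in amplifying-like and 1.69 and 1.03 in bottom enterocyte-like cells. Their kinase Aurkb was at 1.54 and 0.450, and the checkpoint kinase Bub1 at 0.615 and 0.171.

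Kinetochore and centromere genes were lower in sum, 6.09 in amplifying-like and 3.45 in bottom enterocyte-like cells for 6 genes. More than any other of them, Cenpa (chr5:30666777-30674830, plus strand), the histone H3 variant of the centromere, carried this sum, at 2.48 (95% interval 2.19 to 2.80) and 1.94 (95% interval 1.67 to 2.24). Spc24, Ndc80 and Nuf2 encode subunits of 1 complex, the NDC80 complex, but were not captured alike. Spc24 was at 1.24 in amplifying-like and 0.803 in bottom enterocyte-like cells. Ndc80 and Nuf2 were at 0.269 and 0.442 in amplifying-like and 0.0856 and 0.107 in bottom enterocyte-like cells, the latter from 8 and 10 UMIs. The large kinetochore proteins Cenpe and Cenpf were at 0.712 and 0.942 in amplifying-like cells. The kit counts 3′ ends, so a level is a number of molecules and was not divided by transcript length.

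The 10 spindle and motor genes summed to 8.54 in amplifying-like and 3.60 in bottom enterocyte-like cells. Tacc3, which stabilises spindle fibres, Kif11, the motor that separates the spindle poles, and Kif23, a motor of the central spindle, led at 1.38, 1.34 and 1.33 in amplifying-like cells. In bottom enterocyte-like cells Kif11 (chr19:37376403-37421859, plus strand) was at 0.343, below Tacc3 at 0.696 and Kif23 at 0.706. The other 7 (Kif20b, Kif2c, Tpx2, Nusap1, Dlgap5, Hmmr and Gtse1) ran from 0.413 for Dlgap5 to 1.04 for Nusap1 in amplifying-like cells. The cytokinesis genes Ect2 and Anln, which position and build the contractile ring, were at 1.07 and 0.808 in amplifying-like and 0.396 and 0.343 in bottom enterocyte-like cells.

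Among chromosome and chromatin genes, Top2a (chr11:98992943-99024189, minus strand), the topoisomerase that untangles sister chromatids, had the highest level of all 38 genes in amplifying-like cells, 5.39 (95% interval 4.96 to 5.86), and fell to 1.57 in bottom enterocyte-like and 1.21 in stem-like cells. Mki67 (chr7:135689784-135716361, minus strand), the gene of the Ki-67 proliferation antigen, was at 1.65, 0.621 and 0.540 in the same classes. The condensin subunit Smc4 was at 2.08, 0.867 and 0.794, and Hmgb2 (chr8:57511907-57515999, plus strand), a DNA-bending chromatin protein, at 3.66, 2.32 and 1.24. The nuclear envelope genes Lbr and Tmpo, whose proteins tether chromatin to the inner nuclear membrane also outside mitosis, were the highest of the 38 in stem-like cells, at 2.27 and 2.21. Bottom enterocyte-like cells held them at 2.33 and 2.38, beside Ube2c and Hmgb2.

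Top enterocyte-like cells, led by genes of the villus tip, served as the level in cells that should not divide, where free RNA from lysed cells and rare transcripts cannot be told apart. Only 158 UMIs of the 38 genes were counted there. For 9 genes (Bub1, Ndc80, Nuf2, Spc24, Cenpf, Kif20b, Kif2c, Tpx2 and Hmmr) there were none, and 3 UMIs, the 1-sided 95% limit that a count of 0 allows, correspond to 0.0947 per 10000. Tmpo, Ube2c and Smc4 gave the most UMIs there, 23, 16 and 15. The make-up of the 158 UMIs differed from that of the 6851 in amplifying-like cells for 2 genes by intervals that did not overlap. Tmpo made up 14.6% (9.46 to 21) in top enterocyte-like against 6.13% in amplifying-like cells, and Smc4 9.49% (5.41 to 15.2) against 3.15%. No gene had a smaller share by the same rule, at this depth.

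Measured against that level, 28 of the 38 genes had a bottom enterocyte-like interval wholly above the top enterocyte-like one, and 11 did without the regression. The number was 10 with 30 principal components, 15 with cells of at least 500 genes and 8 without the 6 doublets. The 11 were Ccnb2, Cks1b, Cdca3, Birc5, Cdca8, Cdc20, Spc24, Cenpa, Kif23, Hmgb2 and Lbr. With lineages taken from marker lists the number was 34. The share of all genes by this rule without a minimum is not given, so these counts have no background. Intervals also narrow with the UMIs summed. For bottom enterocyte cells these were 934370 with the regression, 527928 without it and 1524366 by marker lineage. Changes in the counts can therefore not be told apart from changes in UMIs summed. Of the 20 members with at least 50 UMIs in both classes together, 19 were above, against 41.3% of 4851 genes. The median log2 ratio of bottom to top enterocyte-like cells was 3.06 for these members and 0.73 for all genes. No member had more than 23 UMIs in top enterocyte-like cells, so these 20 passed the minimum mainly through their bottom enterocyte-like UMIs. The 19 of 20 and the median of 3.06 are thus largely set by that minimum, and no conclusion is drawn from them.

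Every one of the 38 genes was lower in bottom enterocyte-like than in amplifying-like cells, to an extent that varied. Of the 37 members with at least 50 UMIs in both classes together, 34 were at least 1.5-fold lower, against 13.2% of 6556 genes. Of the other mitosis genes 41 of 48 were. Amplifying-like clusters were named from cell division markers, and both lists counted as fitting that name. A lower level in bottom enterocyte-like cells is thus largely set by the naming, and no conclusion is drawn from these counts. The best retained were Ccnb2 with a log2 ratio of -0.26 (-0.59 to 0.064), Cdc20 with -0.35 (-0.68 to -0.021) and Cenpa with -0.36 (-0.64 to -0.077). The least retained were Gtse1, a microtubule-associated protein of G2, with -2.36 (-3.49 to -1.37), Nuf2 with -2.05 (-3.20 to -1.04) and Kif11 with -1.96 (-2.57 to -1.40). The intervals of the first 3 lie wholly above those of the last 3. Between these ends stood Ccnb1 at -0.66, Cks2 and Cdk1 both at -1.10, Mki67 at -1.41, Cks1b at -1.66 and Top2a at -1.78 (-2.05 to -1.51).

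The order changed in part without the regression. Spc24 at -1.04, Ccnb2 at -1.08, Lbr at -1.08 and Cdc20 at -1.40 were then the best retained, whereas Cenpa moved to -1.96 (-2.46 to -1.50) and Ccnb1 to -2.48. Top2a at -2.80, Kif11 at -2.83 and Gtse1 at -3.08 remained low. All 38 intervals lay below 0 there, and 37 of 38 with the regression, Ccnb2 being the exception. In the comparison of marker lineages, where dividing cells with bottom enterocyte markers stay in that lineage, the median log2 ratio of bottom enterocyte to stem lineage over the 38 genes was -0.20. Cdc20 at 0.37 (0.076 to 0.67) and Birc5 at 0.28 (0.043 to 0.52) were higher in the bottom enterocyte lineage, and 7 genes were lower, among them Cenpf at -0.72, Cks1b at -0.37 and Top2a at -0.35. Cdc20 and Ccnb2 were thus toward the retained end and Top2a toward the other end under all 3 assignments.

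**Figure D2:**
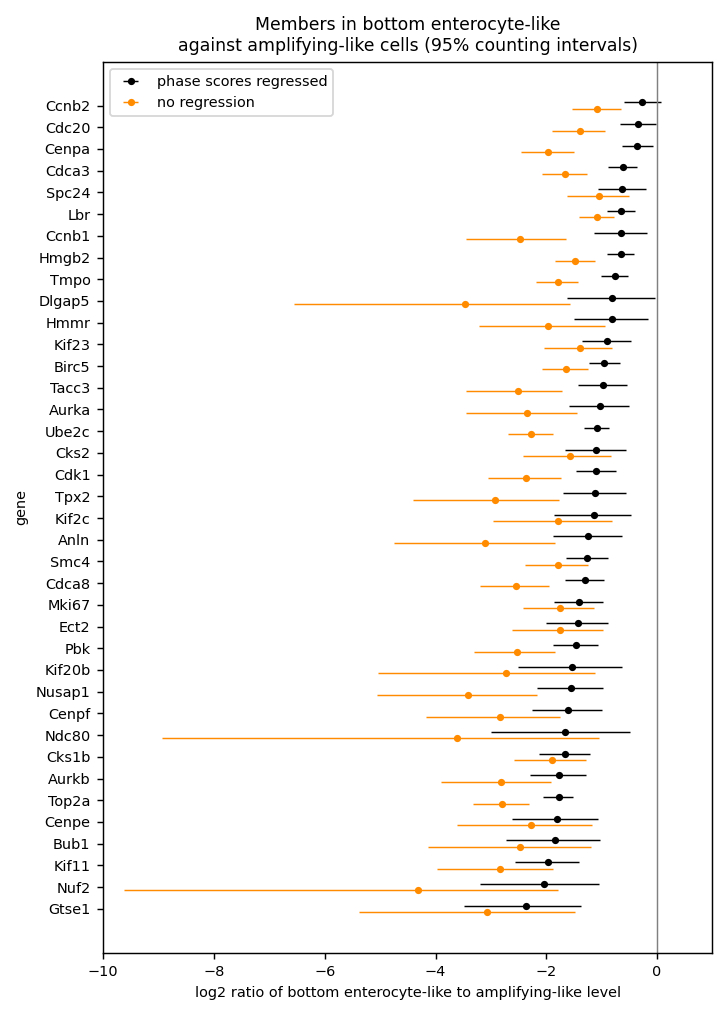
Log2 ratio of the level in bottom enterocyte-like to that in amplifying-like cells (horizontal axis) for each of the 38 genes (vertical axis), with phase scores regressed (black) and without (orange); bars are 95% counting intervals. Black points run from -2.36 for Gtse1 to -0.26 for Ccnb2, and each orange point lies further to the left.

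To ask whether the genes were present in the same cells, each cell with at least 912 UMIs was thinned to that number, which left 1948 of the cells, 984 from WT and 964 from ROBO. At this depth 63.1% of cells had at least 1 of the 38 genes, and 357 cells, or 18.3% (95% interval 16.6 to 20.1), had 5 or more. The most found in 1 cell was 15. The share with 5 or more was 51.6% (95% interval 46.4 to 56.8) in amplifying-like, 19.3% (95% interval 15.1 to 24.1) in bottom enterocyte-like and 11.4% (95% interval 8.50 to 15) in stem-like cells. Within the stem-like class, 32 of 157 cells of the Zfp692-led cluster, in which 4 of 22 stem markers were raised, had 5 or more, against 14 of 245 of the Lgr5-led cluster. The share was 6.41% in middle enterocyte-like cells and 1 of 155 cells in top enterocyte-like cells, 0.645% (95% interval 0.0163 to 3.54). The share of top enterocyte-like cells with at least 1 of the genes, 32.3% (95% interval 25 to 40.2), is the background for a single detection, against 92.0%, 74.9% and 68.9% in amplifying-like, bottom enterocyte-like and stem-like cells. Median UMIs before thinning were 1759, 2598 and 1097 in these 3 classes and 1224 in top enterocyte-like cells. Not thinned, 40.7% of bottom enterocyte-like cells had 5 or more.

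**Figure D3:**
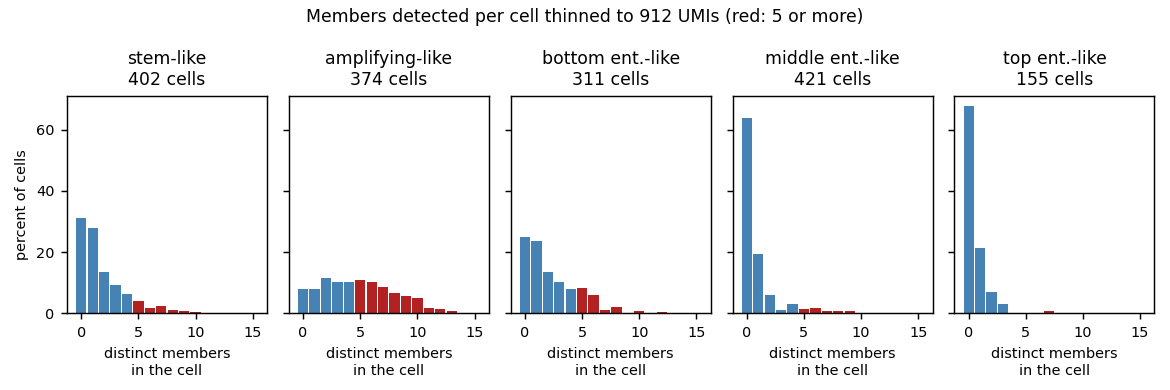
Percent of cells (vertical axis) by the number of the 38 genes with a UMI in the cell (horizontal axis), in 5 cell classes after thinning to 912 UMIs; red marks 5 or more. Cells with 5 or more made up 51.6% of amplifying-like, 19.3% of bottom enterocyte-like and 11.4% of stem-like cells, and 1 of 155 top enterocyte-like cells.

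Without the regression, the share with 5 or more was 52.5% (95% interval 48.5 to 56.5) in amplifying-like, 4.69% (95% interval 2.17 to 8.71) in bottom enterocyte-like and 1.68% (95% interval 0.619 to 3.62) in stem-like cells, and 325 of the 357 such cells were amplifying-like. By marker lineage it was 28.8% (95% interval 25.3 to 32.5) in the stem and 24.8% (95% interval 21.2 to 28.7) in the bottom enterocyte lineage, 2.87% in the middle and 5.36% in the top enterocyte lineage. With the regression, the genotypes had overlapping intervals in these 3 classes: 47.5% (95% interval 40.5 to 54.6) in WT and 56.4% (95% interval 48.6 to 63.9) in ROBO for amplifying-like cells, 19.2% and 19.3% for bottom enterocyte-like cells, and 11.7% and 11.2% for stem-like cells. Over all cells the shares were 18.7% (95% interval 16.3 to 21.3) and 17.9% (95% interval 15.6 to 20.5), intervals that overlap.

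A cell in which a gene was found usually held others of the 38. Over the thinned epithelial cells, the median number of other members in cells with a given gene ran from 3 for Tmpo, Lbr and Spc24 to 7 for Hmmr and Kif20b. Tmpo was the only one of the 38 in 56 of 287 cells (19.5%, 95% interval 15.1 to 24.6) and Lbr in 45 of 260 (17.3%, 12.9 to 22.5). Cenpa was alone in 6 of 155 cells (3.87%), Cdc20 in 5 of 124 (4.03%), Ccnb1 in 3 of 80 (3.75%) and Top2a in 15 of 250 (6%, 95% interval up to 9.70). Tmpo and Lbr were the 2 genes most often found without another of the set, and their intervals lie above those of Cenpa, Cdc20 and Top2a.

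Correlations of detection between pairs of genes were weak, as is usual at this depth, and are given as a description without a p. Over 1087 thinned stem-like, amplifying-like and bottom enterocyte-like cells, 588 of 630 pairs among the 36 genes found in at least 20 cells correlated above 0, with a median of 0.0626. The highest was Ccnb1 with Cenpa at 0.24: Cenpa was found in 30 of 70 cells with Ccnb1, 42.9%, and in 10.4% of the others. Cks2 with Bub1 followed at 0.23, from 9 cells with both, and then Ube2c with Cenpa at 0.20. Cdc20 with Ube2c, which act together on the anaphase-promoting complex, were at 0.20, with Ube2c in 43.7% of cells with Cdc20 and 17.2% of those without. The lowest was Tpx2 with Dlgap5 at -0.037, never found in the same cell but found in only 53 and 28 cells.

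Over all partners, Ube2c and Top2a had the highest mean correlation, 0.11 and 0.10, and Ndc80, found in 11 cells, the lowest at 0.013. Cells of different classes share depth and class as common sources of such correlations. Within bottom enterocyte-like cells alone, 64 of 78 pairs were above 0 with a median of 0.0734 over 311 cells. The highest pair there was Cdc20 with Ube2c at 0.24, where 41.9% of the 31 cells with Cdc20 held Ube2c against 12.9% of the others. Within amplifying-like cells the median was 0.0470, with Ccnb1 and Cenpa again the highest at 0.27. Within stem-like cells the highest was Cenpa with Top2a at 0.34. All values for pairs within a class are from the clustering with the regression.

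Cells with many of the 38 genes carried few transcripts of mature enterocytes. The epithelial cells here leave out secretory-like and enteroendocrine-like cells. Over the thinned ones, a list of 25 mature enterocyte genes gave 80.8 (95% interval 80.1 to 81.4) UMIs per cell in the 666 cells with none of the 38, 31.3 (95% interval 30.9 to 31.7) in the 789 with 1 to 4, and 4.70 (95% interval 4.47 to 4.94) in the 340 with 5 or more. Apoa1, an apolipoprotein of absorptive cells, was found in 71.3%, 37.6% and 13.2% of these cells. Lct, the lactase of the suckling brush border, was found in 59.6%, 27.6% and 4.71%. Median UMIs before thinning in the 3 sets were 1889, 2009 and 2333, and called doublets 1, 3 and 1.

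Genes of the lower crypt-villus axis varied. The 12 bottom enterocyte markers gave 5.39 (95% interval 5.21 to 5.57), 6.50 (95% interval 6.32 to 6.68) and 6.88 (95% interval 6.61 to 7.17) UMIs per thinned cell in the same 3 sets, and the 22 stem markers 1.43, 2.23 and 2.72. Dmbt1, a secreted scavenger receptor protein that helped define the bottom enterocyte-like cluster, went from 0.767 to 2.22 and 4.04 and was found in 65.3% of cells with 5 or more members. Without Dmbt1, the other bottom enterocyte markers went down, at 4.62 (95% interval 4.46 to 4.79), 4.28 (95% interval 4.14 to 4.43) and 2.84 (95% interval 2.67 to 3.03), so the higher sum of the list rested on this 1 gene. The background of Dmbt1 in top enterocyte-like cells with no member was 2.86% of cells. Reg1, another leading gene of that cluster, went from 12.2% of cells with no member to 7.65% of those with 5 or more. Lgr5, the receptor that marks stem cells, was found in 2.70% and 7.35%.

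Among the 340 epithelial cells with 5 or more members, 146 (42.9%, 95% interval 37.6 to 48.4) had a UMI of Dmbt1 or Gsdmc2 to Gsdmc4 and none of 8 stem genes (Lgr5, Sfrp5, Slc14a1, Gkn3, Ascl2, Smoc2, Aqp4 and Olfm4), 46 (13.5%) had only a stem gene, 83 (24.4%, 19.9 to 29.3) had both, and 65 (19.1%) neither. In cells with 1 to 4 members, 10.8% had both and 38% neither. In cells with no member, 4.05% had both and 70.6% neither. The 8 stem genes were picked from the stem list after values had been seen. Dmbt1 and Gsdmc2 to Gsdmc4 are likewise only a part of the bottom enterocyte list. Without Dmbt1, that list was lower in cells with 5 or more members, as given above. These shares therefore do not show that such cells carried the bottom enterocyte markers as a set. The part of free RNA and of droplets with more than 1 cell in the cells with both was not tested.

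Inside the bottom enterocyte-like class, the same gradient was found. Mature enterocyte genes were at 15.8 (95% interval 15 to 16.7) UMIs per thinned cell in the 78 cells with none of the 38, 9.93 (95% interval 9.46 to 10.4) in the 173 with 1 to 4 and 4.87 (95% interval 4.32 to 5.46) in the 60 with 5 or more. Dmbt1 was in 96.7% of the last set and stem markers were at 1.53 UMIs per cell against 0.859 in cells with no member. Called doublets numbered 0, 1 and 0, and median UMIs 2538, 2651 and 3212. Without the regression only 9 bottom enterocyte-like cells had 5 or more, and mature enterocyte genes were at 11.6 (95% interval 9.44 to 14) in them, against 17.1 (95% interval 16.1 to 18.2) in cells with none.

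The 27 middle enterocyte-like cells with 5 or more members did not carry the genes of their class: mature enterocyte genes were at 5.89 UMIs per thinned cell in them against 91.3 in middle enterocyte-like cells with none. Of these cells 16 were in a cluster led by the stress and immediate early genes Cxcl10, Fosb and Atf3. Without the regression 1 middle enterocyte-like cell had 5 or more, and it was called a doublet.

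**Figure D4:**
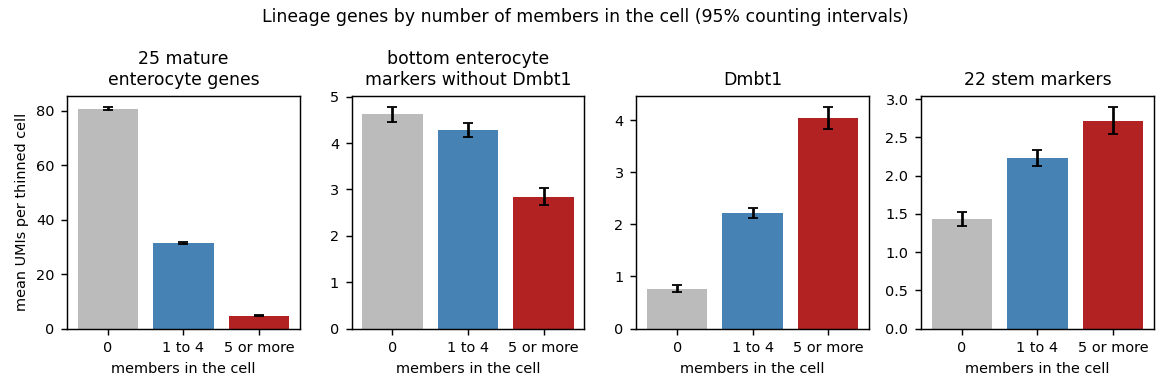
Mean UMIs per cell thinned to 912 UMIs (vertical axes, which differ between panels) of mature enterocyte genes, bottom enterocyte markers other than Dmbt1, Dmbt1 and stem markers, in epithelial cells with 0, 1 to 4 or 5 or more of the 38 genes; bars are 95% counting intervals. Secretory-like and enteroendocrine-like cells are left out. Mature enterocyte genes fall from 80.8 to 4.70 UMIs per cell and bottom enterocyte markers other than Dmbt1 from 4.62 to 2.84, while Dmbt1 and stem markers are higher in cells with more members.

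Between genotypes, the 38 genes together were at 30.8 UMIs per 10000 in WT and 28.9 in ROBO over all cells, which gave a ratio of ROBO over WT on the log2 scale of -0.094 (-0.14 to -0.048). None of the 38 was 1.5-fold apart in either direction, against 2.38% of 9071 genes with at least 50 UMIs that were higher and 2.77% that were lower in ROBO. For 7 of the 38 (Hmgb2, Tacc3, Cdca8, Ccnb2, Cdc20, Cdca3 and Ube2c) the whole counting interval was below 0, against 8.09% of all genes, and for 2 (Cks2 and Tmpo) it was above 0, against 7.43%. In a pooled sum over all cells, fewer dividing cells and less RNA of a gene per dividing cell cannot be told apart.

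By role, the checkpoint, passenger and anaphase genes were the lowest in ROBO, 6.81 UMIs per 10000 in WT against 5.68 in ROBO, or -0.26 (-0.36 to -0.16). Values that follow a pair of UMI sums are such log2 ratios with their intervals. Within that role Cdca8 had 351 UMIs in WT and 247 in ROBO, -0.36 (-0.60 to -0.12), Cdc20 257 UMIs in WT and 190 in ROBO, -0.29 (-0.57 to -0.016), and Ube2c 614 UMIs in WT and 469 in ROBO, -0.25 (-0.42 to -0.07). Cyclins, kinases and their partners were even in sum at -0.03 (-0.13 to 0.07), with members on both sides: Ccnb2 had 272 UMIs in WT and 196 in ROBO, -0.33 (-0.60 to -0.059), Ccnb1 -0.10 (-0.46 to 0.26), Cdk1 249 UMIs in WT and 249 in ROBO, 0.14 (-0.12 to 0.40), and Cks1b 0.23 (-0.06 to 0.52). Top2a had 538 UMIs in WT and 515 in ROBO, 0.08 (-0.10 to 0.26), and Mki67 181 UMIs in WT and 193 in ROBO, 0.24 (-0.064 to 0.54). In amplifying-like cells with the regression, Cdk1 was at 0.58 (0.19 to 0.97), Mki67 at 0.49 (0.042 to 0.94) and Top2a at 0.30 (0.053 to 0.54). Their intervals spanned 0 in stem-like and bottom enterocyte-like cells. Of 34 members tested in amplifying-like cells, 7 had an interval above 0 and 1 below, and the share of all genes is not given there. The nuclear envelope genes stood at 0.042 in sum, with Tmpo at 0.17 (0.001 to 0.34) and Lbr at -0.10 (-0.28 to 0.078).

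**Figure D5:**
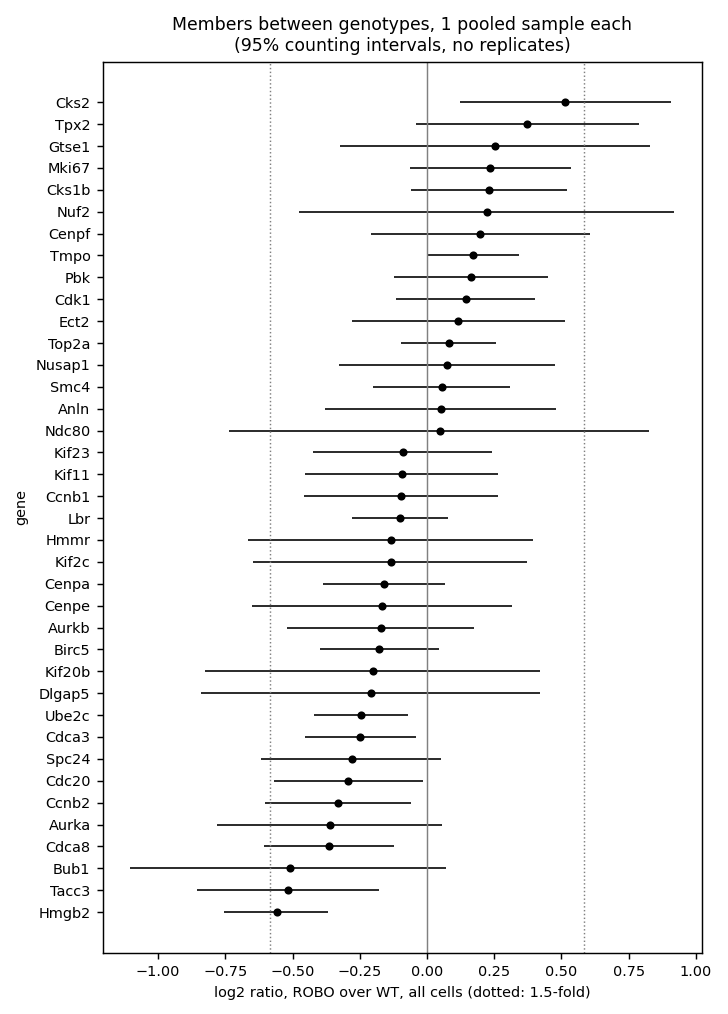
Log2 ratio of ROBO over WT over all cells (horizontal axis) for each of the 38 genes (vertical axis), with 95% counting intervals and dotted lines at 1.5-fold; each genotype is 1 pooled sample. Hmgb2 is lowest at -0.56 and Cks2 highest at 0.51, and no gene reaches 1.5-fold.

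Hmgb2 showed the largest difference. It had 581 UMIs in WT and 357 in ROBO over all cells, 2.17 in WT and 1.47 in ROBO per 10000 UMIs and a ratio on the log2 scale of -0.56 (-0.75 to -0.37). It made up 7.04% (6.49 to 7.61) of the UMIs of the 38 genes in WT and 5.10% (4.59 to 5.64) of those in ROBO, the only gene with a smaller share in ROBO by intervals that did not overlap. In stem-like cells it was at 1.55 in WT and 0.912 in ROBO, -0.77 (-1.35 to -0.20). In amplifying-like cells it was at 4.01 in WT and 3.22 in ROBO, -0.32 (-0.62 to -0.013), and in bottom enterocyte-like cells at 3.00 in WT and 1.47 in ROBO, -1.03 (-1.48 to -0.59). All 3 intervals were below 0 in this clustering, as was that in epithelial cells with 5 or more members, -0.51 (-0.78 to -0.24). It was also below 0 in the stem lineage at -0.48 (-0.77 to -0.19) and the bottom enterocyte lineage at -0.75 (-1.08 to -0.43), which use the clustering only to leave out other cell types. The stem-like difference did not hold in every clustering: it was -0.34 (-1.01 to 0.33) without the regression, -0.43 (-1.19 to 0.31) with 30 principal components and -0.23 (-0.55 to 0.091) with the 38 genes left out of clustering, each under 1.5-fold with an interval that spans 0. In bottom enterocyte-like cells, the ratio ran from -1.04 to -0.73 over the alternatives. In middle enterocyte-like cells, with 32 UMIs in WT and 39 in ROBO, the interval spanned 0. Of thinned WT cells 12.3% (10.3 to 14.5) held a UMI of it, and of ROBO cells 10.2% (8.33 to 12.2), intervals that overlap.

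By summed UMIs, Cks2 had the highest ratio, with 99 UMIs in WT and 128 in ROBO and 0.51 (0.12 to 0.91) over all cells. In amplifying-like cells it was at 0.658 in WT and 1.34 in ROBO per 10000, 1.03 (0.42 to 1.65), and in epithelial cells with 5 or more members at 0.77 (0.24 to 1.32). In bottom enterocyte-like cells it had 15 UMIs in WT and 27 in ROBO, under the limit of 50. In stem-like cells, with 17 UMIs in WT and 9 in ROBO, the interval spanned 0. When every cell was given the same weight, the all-cell ratio of Cks2 was 0.16, below Gtse1 at 0.93, Cdk1 at 0.28, Cenpf at 0.28 and Mki67 at 0.25, and its amplifying-like ratio was 0.54, under 1.5-fold. The equal-weight ratio of Hmgb2 was -0.71. Cks1b, the paralogue of Cks2, was at 0.32 (-0.11 to 0.75) in amplifying-like cells. Tacc3, the spindle protein, was at 0.712 in WT and 0.498 in ROBO per 10000 over all cells, -0.52 (-0.86 to -0.18), and its ratio was -0.55 with equal weights. With equal weight per cell, 30 of the 38 genes kept the sign of their all-cell ratio.

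By class, the summed level was 23.2 in WT and 21.4 in ROBO in stem-like cells, a ratio on the log2 scale of -0.12 (-0.24 to 0.0092). It was 62.5 and 70.1 in amplifying-like cells, 0.17 (0.10 to 0.23), and 35.4 and 28.9 in bottom enterocyte-like cells, -0.29 (-0.40 to -0.19). Without the regression these ratios were -0.14, 0.025 and 0.016 (-0.18 to 0.21), so the difference in bottom enterocyte-like cells was not kept. By marker lineage they were 0.082 in the stem and -0.21 (-0.29 to -0.14) in the bottom enterocyte lineage. With every cell given the same weight, the bottom enterocyte-like ratio was -0.04.

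In stem-like cells, of 14 with at least 50 UMIs, Hmgb2 was at least 1.5-fold lower in ROBO and none was higher, against 4.95% and 4.04% of all genes. In amplifying-like cells 3 of 34 were higher in ROBO, Cks2, Anln and Pbk, and none was lower, against 7.12% and 5.69% of all genes, so the share that was higher was near the background. Anln had 33 UMIs in WT and 51 in ROBO, 0.95 (0.29 to 1.63), and Pbk 97 UMIs in WT and 121 in ROBO, 0.64 (0.24 to 1.04). Both fell under 1.5-fold in other clusterings, Anln at 0.30 and Pbk at 0.44 without the regression, and Anln at 0.41 and Pbk at 0.39 with 30 principal components. In bottom enterocyte-like cells 6 of 20 were lower and none was higher, against 8.94% and 7.2% of all genes.

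The 6 were Hmgb2, Tacc3, Cdca8, Spc24, Ube2c and Cdc20. Tacc3 had 45 UMIs in WT and 20 in ROBO, -0.84 (-1.68 to -0.055). Cdca8 had 66 UMIs in WT and 30 in ROBO, -0.81 (-1.49 to -0.17), and Spc24 51 UMIs in WT and 24 in ROBO, -0.76 (-1.53 to -0.035). Ube2c had 152 UMIs in WT and 75 in ROBO, -0.69 (-1.11 to -0.29), and Cdc20 90 UMIs in WT and 45 in ROBO, -0.67 (-1.22 to -0.14). Without the regression, Hmgb2 alone was past 1.5-fold among the 6 members that still had 50 UMIs there, against 9.68% of all genes that were lower and 7.2% that were higher, Ube2c had a ratio of -0.0051 and Cdc20 one of 0.15. The number lower was 1 to 3 of the members tested with 30 principal components, without the doublets, with cells of at least 500 genes, or with every cell given the same weight. The share of all genes is not given for these settings, so these counts are not set against a background. By marker lineage, 6 of 31 were lower in the bottom enterocyte lineage (Kif2c, Aurka, Hmgb2, Ccnb1, Cdca8 and Nusap1) and 1 was higher (Cks2), against 5.94% and 5.2% of all genes. Of the 6 named above, Hmgb2 at -0.75 and Cdca8 at -0.72 were past 1.5-fold there, and Cdc20 at -0.57, Tacc3 at -0.36, Spc24 at -0.36 and Ube2c at -0.35 were not. In the stem lineage 5 of 34 were higher in ROBO (Cks2, Tpx2, Anln, Gtse1 and Ccnb1) and 1 was lower (Tacc3), against 4.53% and 3.44% of all genes. Among the other mitosis genes, 1 of 62 was higher and 2 were lower in ROBO over all cells, with a median log2 ratio of -0.13 against -0.10 for the 38 and 0.0034 for all genes. Of them, in bottom enterocyte-like cells, 3 of 17 were lower and 1 higher, with a median of -0.20.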

How the data were processed

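Crypt-enriched small intestine cells of WT and ROBO mice at postnatal day 16 were captured on a BioRad ddSEQ isolator with a SureCell 3′ kit, after removal of dead cells, and sequenced. The authors deposited 1 gene-by-cell matrix of raw UMI counts per genotype, whose build is given per the labels as mm10 (GRCm38); the aligner, the gene annotation and the rule for calling cells are not given in the sources used here. The 38 genes and all gene lists were chosen with earlier results of these data known.

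Both matrices were clustered together with Seurat 5.3.0 in R 4.3.3 (2000 variable genes, S and G2M scores regressed, 20 principal components, resolution 0.8), and all deposited cells were kept. A cluster was named when at least 3 markers of a list were raised 1.5-fold over the other cells in at least 10% of its cells (0.1 added to values). Outside the Paneth and goblet names, it was left unnamed when its 10 leading genes held more markers of another list. For the amplifying name, cell division genes, the 38 included, counted as fitting in this check. Scrublet in scanpy 1.11.5, at an assumed rate of 5%, called 2 of 1348 WT and 4 of 1249 ROBO cells as doublets, which were kept unless stated. For each class and genotype, UMIs of all its cells were added up and scaled to the total (UMIs per 10000). Intervals are exact Poisson for levels, exact binomial (Clopper-Pearson) for shares and conditional exact for ratios; they cover counting error only. Cells were thinned to 912 UMIs, the lower quartile, which left out 364 WT and 285 ROBO cells. No test or p-value was computed, since cell names do not give the sample; genotype ratios of 1.5-fold in genes with at least 50 UMIs are counted by size. The ratio step was tested on simulated data, and the thinning step on the real counts, by comparing the shares of genes before and after it. Gene positions are from GENCODE M21. Any of the 38 genes could be named; the 3 with the highest and the 3 with the lowest ratio of bottom enterocyte-like to amplifying-like level, those past 1.5-fold between genotypes, and Top2a, Mki67, Ccnb1, Cdk1, Cdc20, Cks1b and Cks2 are described in full. Alternatives changed the regression, the clustering, the cells kept, the scaling, the thinning and the thresholds.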

Additional observations from a re-analysis of the deposited data

Results flagged for a closer look

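The summed level of the 38 genes stood apart between classes in its ratio of ROBO over WT: the log2 ratio was 0.17 (0.10 to 0.23) in amplifying-like and -0.295 (-0.40 to -0.19) in bottom enterocyte-like cells, so the pooled samples moved in opposite directions. The difference between the classes was not tested, because each genotype is 1 pooled sample. Without the regression of cell-cycle scores the values were 0.025 and 0.016, and by marker lineage the bottom enterocyte value was -0.21.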

How the results depend on the processing

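No paired analysis was possible because the cell names give the genotype and not the sample, so no replicate numbers exist in the matrices, and for the same reason no sample could be left out. Precision is limited by UMIs per class: of the 38 genes, 14, 34 and 20 reached 50 UMIs in stem-like, amplifying-like and bottom enterocyte-like cells. The assignment of dividing cells to bottom enterocyte-like or amplifying-like clusters moved most values, and the cause was not tested. When the 38 genes and the phase genes were left out of clustering, no cluster was bottom enterocyte-like and no such value exists. A cluster led by Dmbt1, Gsdmc4 and Gsdmc2 took the amplifying name there, with cell division genes counted as fitting among its leading genes. So did one led by Dmbt1 and Fgfbp1 when doublets were left out. Of 343 values under alternatives, 230 moved by less than their error or threshold, 107 moved by more and 6 changed sign.

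The log2 ratio of summed bottom enterocyte-like to amplifying-like level was -1.93 with no regression, -1.69 with 30 principal components, -1.65 with cells of at least 500 genes, -2.10 without doublets, -1.10 without the Rn45s-led cluster and -1.08 scaled without ribosomal genes and Rn45s. Members above the top enterocyte level numbered 11, 10, 15 and 8 under the first 4, with no share of all genes to set beside them. Bottom enterocyte-like cells with 5 or more members made up 4.69%, 6.00%, 10.7% and 2.94% under the same 4, 40.7% not thinned, 31.5% thinned to the median, 24.8% by marker lineage (chosen after seeing the data), and 37.6% held 3 or more. Mature enterocyte genes in such cells were at 11.6, 6.17, 5.96 and 9.25 UMIs per cell under the first 4, 9.01 thinned to the median and 6.29 for 3 or more members.

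The summed log2 ratio of ROBO over WT in amplifying-like cells was 0.025 with no regression, -0.054 with 30 components, 0.042 with 500 genes, 0.067 without doublets and -0.027 with members left out of clustering. In bottom enterocyte-like cells it was 0.016 with no regression, -0.13 with 500 genes, -0.014 without doublets, -0.42 at resolution 1.2 and -0.040 with each cell given the same weight. In stem-like cells it was 0.029 with members left out of clustering, -0.25 with equal weights and 0.082 by lineage. In bottom enterocyte-like cells Cdc20 was at 0.15 with no regression and 0.011 without doublets, and Ube2c at 0.030 with 30 components.

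The number of members tested changes with the setting, and the share of all genes past the fold is given only where stated. A change in the counts below can therefore not be told apart from a change in the members tested or in the background. Members at least 1.5-fold lower in bottom enterocyte-like cells numbered 1 with no regression (of 6 tested, against 9.68% of all genes), with 500 genes and without doublets, 2 with 30 components and 3 with equal weights. With 20 UMIs required it was 10, with 100 UMIs 3 and at 2-fold 1. Members higher there numbered 2 with equal weights or 20 UMIs and 1 by lineage, the last of 31 tested against 5.2% of all genes. In amplifying-like cells 1 was higher with 30 components, without doublets or at 2-fold; 2 were lower with 30 components or equal weights, and 1 with 500 genes, without the Rn45s-led cluster or with members left out of clustering. In stem-like cells 0 were lower with no regression, with members left out of clustering or at 2-fold, 3 with 500 genes, without doublets or with equal weights, and 6 with 20 UMIs. In the same class 1 was higher with 20 UMIs, 4 with members left out and 5 by lineage, the last of 34 tested against 4.53% of all genes.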

Other observations

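The 38 genes were also found outside the absorptive lineage. The 44 immune-like cells, led by the lymphocyte genes Gzma, Ccl5 and Gzmb, held 44.7 UMIs of the 38 genes per 10000. The level was 37.2 (32.2 to 42.7) in 25 WT cells and 56.4 (48.7 to 64.9) in 19 ROBO cells. After thinning, 17.1% (95% interval 6.56 to 33.6) of immune-like cells had 5 or more of the genes, 3 of 19 in WT and 3 of 16 in ROBO. The UMI intervals do not cover variation between so few cells, and the difference between genotypes was not tested. The 127 secretory-like cells, led by the goblet cell genes Zg16, Fcgbp and Clca1, held 25.3, and 10.9% (95% interval 5.34 to 19.1) of them had 5 or more. The 29 enteroendocrine-like cells, led by Chgb, Gip and Chga, held 15.4. Immune-like cells stood above secretory-like cells, which stood above enteroendocrine-like cells, in this summed level.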
